A study of Mus musculus with 14 samples.

Results

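Chromatin with acetylated lysine 27 of histone H3 (H3K27ac) was set against chromatin with the same lysine trimethylated (H3K27me3) in wild-type (WT) mouse blood progenitors. The material was 4 of the series' 14 samples, namely the H3K27ac libraries WT1 and WT2 and the H3K27me3 libraries WT1 and WT2. Each library came as a list of islands, stretches of the genome in which the submitters' caller found more reads than background. A gene was taken to carry a mark when an island of WT1 and an island of WT2 each came within 2 kb of an annotated end of the gene. By this rule 10013 of 21887 protein-coding RefSeq genes carried H3K27ac only, 3423 carried H3K27me3 only, 1840 carried both marks and 6611 carried neither.

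The cells were lineage-negative bone marrow progenitors of C57BL/6 mice, enriched by removing mature blood cells with a lineage depletion kit. WT libraries came from mice with the UTX gene (Kdm6a) intact, and knockout (KO) libraries, labelled UTX KO, came from the same strain and cell preparation. The 2 KO libraries of each mark, 2 WT libraries of chromatin bound by UTX itself and 1 WT library made with a nonspecific antibody (IgG) served for comparison. How the deletion was made, the age and sex of the mice, how many were used and whether libraries came from separate animals are not given in the sources used here, so the spread between libraries may be technical. With 2 libraries a mark, no exact permutation test can pass the usual threshold, and none was run.

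H3K27ac is laid down by acetyltransferases such as p300 and CBP and marks active promoters and enhancers. H3K27me3 is laid down by Polycomb repressive complex 2 and covers silent genes, in broad blankets over developmental regulators and Hox clusters. UTX is a demethylase that removes H3K27me3 and travels with enhancer-activating methyltransferase complexes. A single lysine cannot carry both groups, and in a mixed population an overlap of the marks does not tell neighbouring nucleosomes, different alleles and different cells apart.

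Mammalian Polycomb and active promoters alike often lie in CpG islands, stretches rich in the dinucleotide CG. The bases just upstream of the start are therefore shown for 3 genes with both marks (Gata2, Cebpa and Hoxa9) and for 1 gene of each other class (Kit with H3K27ac only, Neurod1 with H3K27me3 only and Alb with neither). Each run is the 250 bases before the annotated start in RefSeq (GRCm38.p6, the assembly called mm10), 5′ to 3′ on the strand of the gene, with every CG in capitals.
Gata2, chr6:88193641-88193890, plus strand, both marks: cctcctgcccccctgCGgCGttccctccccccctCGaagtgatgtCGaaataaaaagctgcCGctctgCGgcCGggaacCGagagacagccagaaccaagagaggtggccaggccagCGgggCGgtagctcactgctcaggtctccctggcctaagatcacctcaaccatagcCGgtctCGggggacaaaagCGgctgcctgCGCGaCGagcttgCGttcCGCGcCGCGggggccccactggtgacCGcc
Cebpa, chr7:35119043-35119292, plus strand, both marks: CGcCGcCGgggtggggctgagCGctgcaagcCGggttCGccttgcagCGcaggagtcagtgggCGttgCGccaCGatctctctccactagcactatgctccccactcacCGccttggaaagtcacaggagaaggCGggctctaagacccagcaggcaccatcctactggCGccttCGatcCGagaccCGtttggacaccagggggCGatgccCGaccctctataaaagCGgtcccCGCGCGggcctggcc
Hoxa9, chr6:52227371-52227620, minus strand, both marks: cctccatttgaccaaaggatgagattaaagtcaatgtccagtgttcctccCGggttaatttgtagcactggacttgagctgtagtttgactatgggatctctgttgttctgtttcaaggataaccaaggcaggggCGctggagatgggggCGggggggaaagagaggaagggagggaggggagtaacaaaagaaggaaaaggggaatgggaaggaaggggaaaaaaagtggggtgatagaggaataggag
Kit, chr5:75574737-75574986, plus strand, H3K27ac only: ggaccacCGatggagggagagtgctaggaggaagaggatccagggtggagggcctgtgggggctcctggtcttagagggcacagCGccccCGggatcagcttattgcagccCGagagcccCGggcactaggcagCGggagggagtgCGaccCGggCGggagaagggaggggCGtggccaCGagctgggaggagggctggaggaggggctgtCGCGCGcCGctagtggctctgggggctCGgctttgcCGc
Neurod1, chr2:79456637-79456886, minus strand, H3K27me3 only: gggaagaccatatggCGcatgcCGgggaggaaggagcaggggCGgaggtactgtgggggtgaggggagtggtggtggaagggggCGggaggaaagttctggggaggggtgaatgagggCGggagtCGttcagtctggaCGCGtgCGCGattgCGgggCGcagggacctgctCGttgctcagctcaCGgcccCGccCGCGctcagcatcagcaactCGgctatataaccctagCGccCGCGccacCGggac
Alb, chr5:90460620-90460869, plus strand, neither mark: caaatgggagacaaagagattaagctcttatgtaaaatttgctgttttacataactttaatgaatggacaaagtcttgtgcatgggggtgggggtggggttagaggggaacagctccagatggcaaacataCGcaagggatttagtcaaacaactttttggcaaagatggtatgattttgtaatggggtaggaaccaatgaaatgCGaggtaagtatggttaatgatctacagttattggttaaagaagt
Gata2, Cebpa and Neurod1 held 22 CG each, Kit held 17, Hoxa9 held 3 and Alb held 2. The ratio of observed CG to the number that the base composition gives by chance was 0.785 for Gata2, 0.801 for Cebpa, 0.841 for Neurod1, 0.601 for Kit, 0.266 for Hoxa9 and 0.261 for Alb. Hoxa9 was thus as poor in CG as Alb, the gene of serum albumin. Pax6, with H3K27me3 only, and Gfi1, with both marks, lay between at 0.652 and 0.594, so the classes were not separated by these few starts.

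The H3K27ac libraries held 29662 and 32167 islands with 9330823 and 15256696 reads, and the H3K27me3 libraries held 18847 and 20412 islands with 2743508 and 2455803 reads. H3K27me3 thus rested on fewer reads in both libraries. The libraries agreed on H3K27ac more than on H3K27me3. Of the genes with an H3K27ac island in WT1 and in WT2, 12058 and 12235, 11853 were the same genes, 98.3% and 96.9% of each. For H3K27me3 the numbers were 5968 and 6121 with 5263 shared, 88.2% and 86.0% of each. The IgG library held 3133 islands with 154029 reads, and 0.489% of the genes with both marks met one of them, as did 0.489% of those with H3K27ac only and 0.906% of those with H3K27me3 only.

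Among the 21887 genes, H3K27ac only was called at 45.7%, H3K27me3 only at 15.6%, both marks at 8.41% and neither at 30.2%. Every pairing of 1 H3K27ac with 1 H3K27me3 library gave the same order of class sizes. Without the demand that a mark be present in both libraries, the number of genes with both marks in the 4 pairings ran from 2306 to 2511 (mean 2408 ± 102 SD over pairings, which share libraries). The same pairings gave 9578 to 9899 genes with H3K27ac only and 3610 to 3662 with H3K27me3 only. The class with both marks was the one that shrank most under the demand for both libraries.

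**Figure D1:**
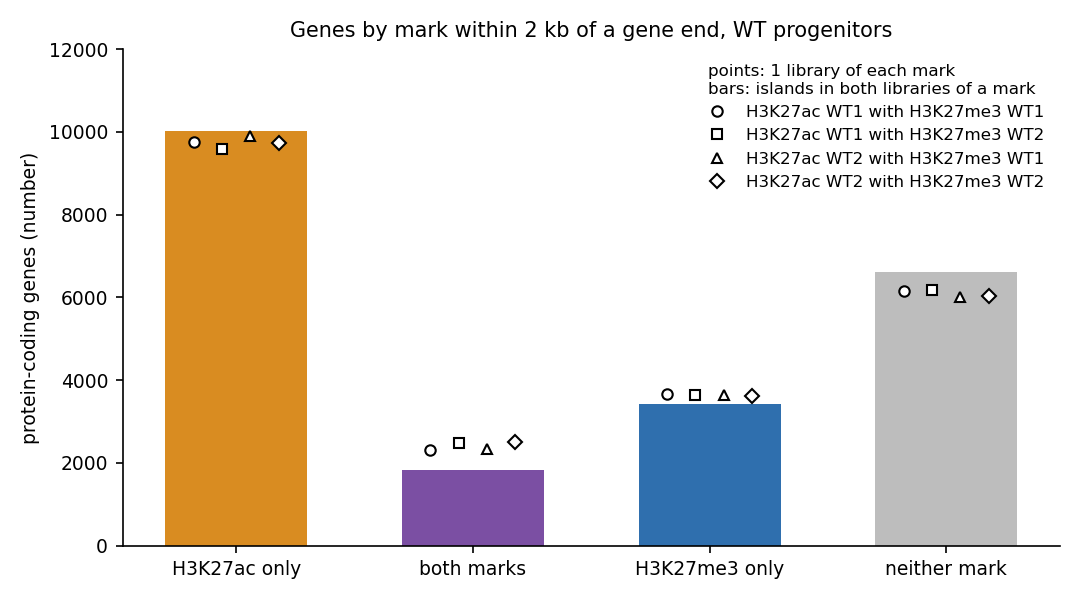
Number of protein-coding genes (vertical axis) in each class of marks; bars use islands found in both WT libraries of a mark, and points use 1 library of each mark. All points of the class with both marks, 2306 to 2511 genes, lie above its bar of 1840, while those of H3K27ac only, 9578 to 9899, lie below the bar of 10013.

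Measured in bases, the marks were almost separate. Of the 2703 Mb between the first and last annotated gene of each chromosome, 129 Mb lay in H3K27ac islands of both libraries only, 63.2 Mb in H3K27me3 islands of both libraries only, and 1.98 Mb in both. The bases with both marks were 1.51% of all H3K27ac bases and 3.03% of all H3K27me3 bases, while the span as a whole had 4.83% of its bases in H3K27ac and 2.41% in H3K27me3. An H3K27me3 base therefore also carried H3K27ac less often than an average base of the span. Leaving out H3K27me3 WT1 raised the bases with both marks to 3.22 Mb, and leaving out H3K27me3 WT2 raised those with H3K27me3 only to 115 Mb. Overlap was concentrated at genes, since 62.1% of the bases with both marks lay within 2 kb of a gene end, against 24.7% of those with H3K27ac only, 24.8% of those with H3K27me3 only and 5.53% of the span.

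The 1.98 Mb fell into 1146 stretches with a median width of 1.40 kb, of which 374 reached 2 kb. The longest, 18 kb at chr6:52216001-52234000, ran over Hoxa7, Hoxa9 and Hoxa10, homeobox genes that are active in blood stem cells. The next, 11.8 kb at chr6:88192401-88204200, lay over the start and most of the body of Gata2, a zinc finger factor of stem cells, early erythroid cells and mast cells. Further long stretches lay at Tnrc18 (10.4 kb), at Gfi1 (9.0 kb), a transcriptional repressor of stem cells and granulocytes, at Ccnd2 (6.80 kb), which encodes cyclin D2, and at Mecom (6.40 kb) and Meis1 (6.20 kb), both stem cell factors. Stretches of 6.40 kb and 5.80 kb lay in Bcor, which encodes a subunit of a variant Polycomb repressive complex 1. Stretches inside Zbtb46 (6.80 kb) and Runx2 (5.80 kb) were away from the gene ends, and these genes were classed as H3K27ac only by the rule.

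By contrast, the longest stretches of 1 mark shared by both libraries held different genes. For H3K27ac they were 81.6 kb at Zmiz1, 78.2 kb at Ptpre and 72.8 kb at Bcl11a, a zinc finger factor of lymphoid and erythroid cells. For H3K27me3 they were 191 kb over the Hoxc cluster from Hoxc13 to Hoxc4, 114 kb from Evx2 to Hoxd4, and 78.0 kb in the Hoxa cluster. The Hoxa stretch came within 2 kb of Hoxa3, Hoxa6, Hoxa7, Hoxa9, Hoxa10, Hoxa11 and Hoxa13, and not of Hoxa4 or Hoxa5. It also held the longest overlap with H3K27ac.

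At Hoxa9 the H3K27me3 island held 3256 reads in WT1 and 4319 in WT2, and was 78.8 kb and 78.0 kb wide. The H3K27ac island at the same gene held 2274 and 2789 reads and was 23.0 kb and 18.4 kb wide, so it lay wholly within the broader mark in both libraries. Hoxa7 and Hoxa10 met the same H3K27me3 islands, so these genes do not count as separate observations. At Gata2 the order of widths was turned round: the H3K27ac islands were 20.4 kb and 20.6 kb wide with 2033 and 2801 reads, and the main H3K27me3 islands inside them were 15.2 kb and 11.8 kb wide with 471 and 538 reads. Cebpa, the factor that starts granulocyte and monocyte differentiation, had H3K27ac islands of 12.8 kb and 12 kb (962 and 1527 reads) and H3K27me3 islands of 5.60 kb and 6.80 kb (139 and 195 reads) around its start. Gfi1 had H3K27ac islands of 12.4 kb and 13 kb (598 and 1024 reads) over H3K27me3 islands of 11.0 kb and 9.0 kb (318 and 310 reads).

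**Figure D2:**
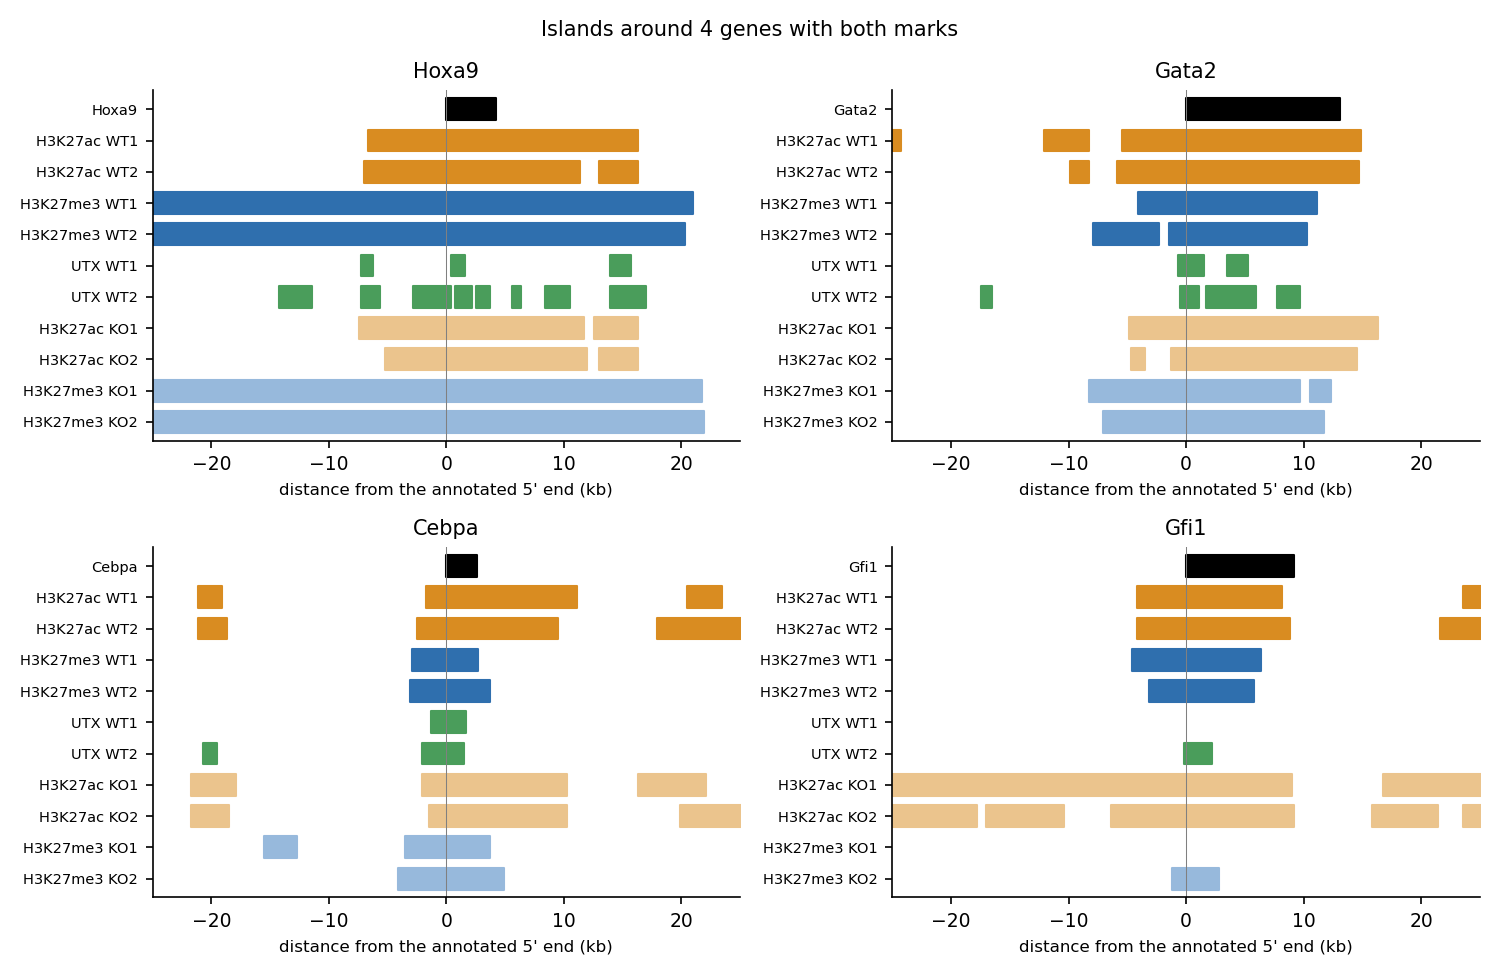
Islands of each library (coloured bars, 1 row per library) by distance from the annotated 5′ end in kb, in the direction of transcription, at Hoxa9, Gata2, Cebpa and Gfi1, with the gene in black. H3K27ac lies inside a wider H3K27me3 island at Hoxa9 (23.0 kb in 78.8 kb in WT1), the narrower mark is H3K27me3 at Gata2 and Cebpa, and at Gfi1 the library KO1 has no H3K27me3 island near the gene.

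A gene could carry both marks without sharing a base. In 925 of the 1840 genes (50.3%) the shared islands of the marks overlapped within 2 kb of a gene end, as at Gata2. In 282 (15.3%) they met the same end without overlap, in 596 (32.4%) they met different ends, and in 37 (2.01%) the libraries of a mark had no stretch in common there. Among the 1428 genes whose strand was known, 819 (57.4%) had both marks at the 5′ end. A further 290 (20.3%) had H3K27ac at the 5′ end and H3K27me3 only at the 3′ end, and 283 (19.8%) had the reverse. The classes with 1 mark were more strongly placed at the start: H3K27ac was at the 5′ end in 96.5% of the genes with H3K27ac only, and H3K27me3 in 91.8% of those with H3K27me3 only.

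Genes with the marks at different ends included Erg and Itga2b. Erg, an ETS factor of stem cells, had H3K27me3 islands of 425 and 347 reads and H3K27ac islands of 65 and 197 reads with no base in common at its ends. At its 5′ end alone it was H3K27me3 only. Itga2b, the platelet integrin CD41, had 404 and 317 H3K27me3 reads and 644 and 662 H3K27ac reads, and at its 5′ end alone it was H3K27ac only. Of the 10 genes with the strongest signal of both marks by rank, 7 had the marks at different ends, 2 had them apart at the same end, and Nr4a3 alone had an overlap, of 800 bases. The 7 included Pkmyt1, an inhibitory kinase of the cell cycle, Cir1 and the neighbours Catsperz and Gpr137, which shared an H3K27me3 island of 640 and 837 reads.

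Around the 5′ end, both marks were centred just inside the gene in each class that carried them. In genes with H3K27ac only, an H3K27ac island covered the position 300 bp downstream in 92.2% (WT1) and 92.7% (WT2). In genes with both marks the same position was covered in 70.2% and 70.7%, and H3K27me3 peaked at 700 bp with 62.1% and 64.5%. H3K27me3 was the broader mark there too.

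**Figure D3:**
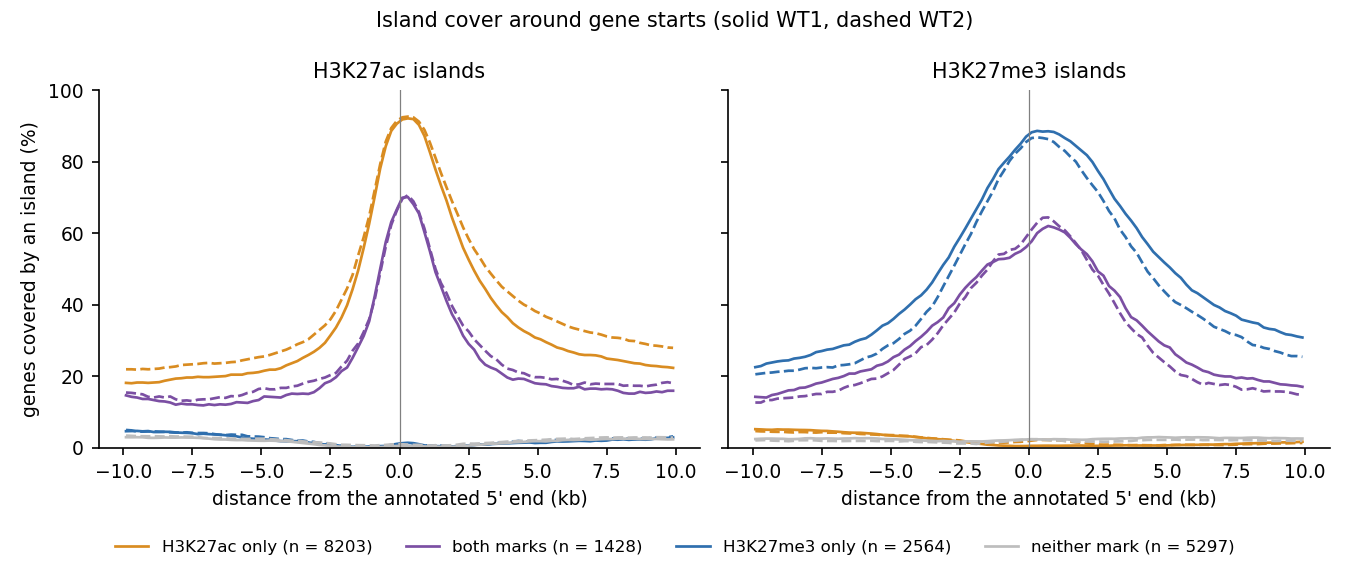
Percent of genes covered by an island (vertical axis) by distance from the annotated 5′ end in kb, for H3K27ac (left) and H3K27me3 (right), with 1 line per class and library. H3K27ac peaks at 92.2% and 92.7% in the class with H3K27ac only and at 70.2% and 70.7% in the class with both marks, and H3K27me3 falls off more slowly on either side.

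Signal at the marked ends was compared within each library as scaled reads, meaning reads per kb of island per 1000000 island reads of the library. The median H3K27ac value was 9.46 in WT1 and 7.77 in WT2 for genes with H3K27ac only, and 6.54 and 5.63 for genes with both marks. The median H3K27me3 value was 9.59 and 12.2 for genes with H3K27me3 only, and 8.82 and 11.4 for genes with both. Each mark was lower in each library where the other was also called, and the gap was wider for H3K27ac. The islands were narrower as well: the H3K27ac islands at a gene summed to a median of 5.80 kb and 7.0 kb in genes with H3K27ac only against 4.00 kb and 4.40 kb in genes with both, and the H3K27me3 islands to 9.40 kb and 7.80 kb against 6.60 kb and 5.80 kb. The classes rest on these same islands, so these values describe them and no test was made.

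The strongest genes of the 1-mark classes were of different kinds. Among genes with H3K27ac only, Scaf8, Pcbp1, Arrdc3 and Hmgb1 stood among the first 6. Hmgb1, an abundant chromatin architectural protein, had 1858 and 2445 reads, or 35.6 and 28.6 scaled reads. Among genes with H3K27me3 only, Tmem125 stood far above the rest with 2128 and 1937 reads, or 176 and 188 scaled reads. The second, Elobl, had 39.2 and 43.4 and also met an IgG island of 240 reads. With islands that meet an IgG island left out, or with at least 50% of a window covered, Elobl was called with neither mark. Tmem125 met no IgG island. Skor1 and Dlx1, factors of neural development, were also among the 10, with 22.6 and 33.1 for Skor1 and 21.4 and 31.2 for Dlx1.

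Hox genes, which set position along the body axis and are kept silent by Polycomb in most adult tissues, were divided between 2 classes. Of 39 Hox genes, 26 carried H3K27me3 only (66.7%), 12 carried both marks (30.8%) and none carried H3K27ac only, against 15.6%, 8.41% and 45.7% of all genes. Every gene of the Hoxc and Hoxd clusters carried H3K27me3 only. At Hoxd13 the H3K27me3 islands held 5635 and 7523 reads and no H3K27ac island came near in either library. The 12 with both marks included Hoxa3, Hoxa4, Hoxa7, Hoxa9 and Hoxa10 and the run from Hoxb2 to Hoxb6, and in each of the 12 the marks overlapped in bases. At Hoxb5 the H3K27me3 islands held 3175 and 3609 reads and the H3K27ac islands 1286 and 715. Hoxa5, in the middle of the run, was called with neither because the H3K27me3 island of 3256 reads in WT1 reached its window, starting at chr6:52206401, while its counterpart of 4319 reads in WT2 started at chr6:52207001, just beyond the window.

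Other regulators of embryonic development carried H3K27me3 alone. Of 76 developmental transcription factors outside the Hox clusters, 75 had H3K27me3 only and 1, Irx5, had both marks. Pax6, a regulator of eye and brain development, had 2028 and 2691 H3K27me3 reads, Sox2, a pluripotency and neural factor, 1231 and 1445, and Neurod1, a neuronal factor, 375 and 420. No H3K27ac island met the ends of these 3 genes in either library. Of 53 ligands of the Wnt, Fgf, Bmp and Hedgehog families, 40 had H3K27me3 only, 6 had both (Bmp6, Bmp8a, Dhh, Fgf3, Fgf11 and Wnt10b) and 7 had neither. Voltage-gated potassium and sodium channels followed, with 33 of 50 at H3K27me3 only (66.0%). The share of H3K27me3 only among all genes was 15.6%.

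Of 33 stem and progenitor regulators, 19 carried H3K27ac only (57.6%, against 45.7% of all genes), 11 both marks, 1 H3K27me3 only (3.03%, against 15.6%) and 2 neither (6.06%, against 30.2%). Kit, the receptor of stem cell factor and a marker of these progenitors, had 912 and 1365 H3K27ac reads and no H3K27me3 island in either library. Spi1, the myeloid factor PU.1, had 1652 and 4207, and Lmo2, a bridge of the stem cell transcription complex, had 4176 and 7897. Runx1 and Tal1 were less clear-cut: Runx1 also met an H3K27me3 island of 67 reads in WT1 only, and Tal1 one of 147 reads in WT2 only.

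The 11 stem and progenitor regulators with both marks were Meis1, Hlf, Erg, Bmi1, Mecom, Prdm16, Gfi1, Flt3, Gata2, Cebpa and Fli1, and in all but Erg the marks overlapped in bases. They made up 33.3% of the list, against 8.41% of all genes. Meis1, a homeobox partner of Hoxa9, had 177 and 240 H3K27me3 reads beside 2348 and 3384 H3K27ac reads. Mecom, which encodes the stem cell factor EVI1, had 444 and 634 beside 558 and 674. Prdm16 leaned the other way, with 741 and 754 H3K27me3 reads beside 72 and 49 H3K27ac reads, and with windows of 1 kb it was H3K27me3 only. Flt3, a receptor of early lymphoid and myeloid progenitors, had 105 and 112 beside 295 and 295. Procr, a stem cell surface receptor, was the member with H3K27me3 only, at 83 and 148 reads.

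Of 30 erythroid genes, 22 carried H3K27ac only (73.3%, against 45.7% of all genes) and 6 both marks. The 6 were Gata2, Epor, the receptor of erythropoietin, Slc4a1 and Sptb, parts of the red cell membrane, Tspan33 and Trim10. At Epor, 103 and 168 H3K27me3 reads lay beside 546 and 890 H3K27ac reads, and at Slc4a1, 706 and 365 lay beside 294 and 782. Of 20 megakaryocyte genes, 12 had H3K27ac only (60.0%) and 6 both (30.0%, against 8.41% of all genes), among them the platelet glycoproteins Gp5 and Gp9. Gp5 had 95 and 156 H3K27me3 reads beside 510 and 771 H3K27ac reads. Ank1 (erythroid) and Gp1bb (megakaryocyte) were the only members of their lists with H3K27me3 only. For Ank1 this holds at the gene ends alone. A long stretch with both marks lay at Ank1 away from its ends, and a search of the whole gene gave both marks.

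Granulocyte and monocyte genes gave 16 with H3K27ac only, 4 with both (Cebpa, Cebpd, Cd14 and Irf8), 1 with H3K27me3 only and 9 with neither. The shares of 53.3% for H3K27ac only, 13.3% for both and 30.0% for neither lay near the 45.7%, 8.41% and 30.2% of all genes. Mpo, the peroxidase of primary granules, had 2247 and 3979 H3K27ac reads and Elane, the elastase, 1551 and 2823. Camp, Ltf, Ngp, S100a8 and S100a9, genes of secondary granules and of mature neutrophils, were called with neither mark. Such genes were not uniform, since Lcn2 and Mmp8 carried H3K27ac only and Mmp9 carried H3K27me3 only. Irf8, a factor of monocytes and dendritic cells, combined 4015 and 6926 H3K27ac reads with 87 and 91 H3K27me3 reads.

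Of 21 B cell genes measured, 13 carried H3K27ac only (61.9%, against 45.7% of all genes), among them Pou2af1, Rag2, Dntt, Igll1 and Vpreb1. The B lineage factors Pax5 and Ebf1 carried H3K27me3 only, at 947 and 1317 reads for Pax5 and at 590 and 757 for Ebf1. Ebf1 also met an H3K27ac island of 69 reads in WT1 only, and both genes had H3K27ac islands inside the gene body away from the ends. Of 29 T and NK cell genes, 7 carried H3K27ac only (24.1%), 11 H3K27me3 only (37.9%, against 15.6% of all genes) and 11 neither. The H3K27me3 group held the T lineage factors Gata3 (1071 and 1306 reads), Bcl11b (707 and 607), Tcf7, Tbx21, Eomes and Lef1, and also the surface genes Cd2, Cd4, Cd3e and Cd3g. The 7 with H3K27ac only were Cd3d, Cd247, Cd28, Ctla4, Il2rb, Cd5 and Lck, so the CD3 genes were divided between classes. Foxp3, a factor of regulatory T cells, had neither mark. No gene of the list carried both marks.

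Of 8 surface genes listed for the depletion step, 4 carried H3K27ac only (50.0%, against 45.7% of all genes) and 4 neither. The former included Ptprc, with the B cell form B220, Itgam (CD11b) and Cd5. The latter were Ly6c1, Ly6c2 and Ly6g, of the Gr-1 family, and Ly6a, which is a stem cell marker and not a target of depletion. The values were modest at Cd5, at 257 and 356 reads, and at Itgam, at 327 and 984. Whether a remainder of mature cells contributed was not tested. Markers of other tissues were seldom in the class with H3K27ac only, which held 45.7% of all genes. It held 1 of 28 neuronal and glial genes and 1 of 30 liver, muscle and epithelial genes (Ryr1). It also held 5 of 25 stromal and endothelial genes, including Pecam1 and Vcam1, which blood cells also express. H3K27me3 only, at 15.6% of all genes, held 21 of the 28 neuronal and glial genes, such as Gad1, Map2 and Snap25. It held 11 of the 30 liver, muscle and epithelial genes, such as Myod1, Pdx1 and Cdh1, and 8 of the 25 stromal and endothelial genes. Both marks, at 8.41% of all genes, were called at 4 of the 28, 3 of the 30 and 3 of the 25. Neither mark was called at 2 of the 28, 15 of the 30 and 9 of the 25, against 30.2% of all genes.

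The machinery that writes and reads the marks was itself marked by both more often than the average gene. Of 43 Polycomb and trithorax genes, 30 carried H3K27ac only, 12 both marks and 1 neither, or 27.9% with both against 8.41%. The 12 included the chromobox genes Cbx2 and Cbx8, the Polycomb ring finger genes Pcgf1, Pcgf2 and Bmi1, and Phf19, Ezh1, Bcor and Kdm6b. Cbx8, whose product binds H3K27me3, had 1681 and 2305 H3K27me3 reads beside 157 and 193 H3K27ac reads. Kdm6b, another H3K27me3 demethylase, was the opposite case with 108 and 98 beside 2907 and 3820. Cbx2 and Cbx8 are neighbours on chromosome 11, so these are not separate regions.

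Cell cycle genes covered all the classes. The list of 22 held cyclins, cyclin-dependent kinase inhibitors and the genes Trp53, Trp63, Trp73, Rb1, Rbl1 and Rbl2. Of the 22, 12 carried H3K27ac only (54.5%), 5 H3K27me3 only (22.7%), 4 both (18.2%) and 1, Trp63, neither (4.55%). The shares of all genes were 45.7%, 15.6%, 8.41% and 30.2%. Cdkn2a and Cdkn2b, inhibitors that Polycomb silences in proliferating cells, carried H3K27me3 only, with 1282 and 1900 reads at Cdkn2a. The cyclins Ccnd1 and Ccnd2 carried both along the whole of an end window, 2 kb on either side of the end. Ccnd1 had 312 and 417 H3K27me3 reads beside 420 and 503 H3K27ac reads, and Ccnd2 had 291 and 346 beside 1057 and 1059.

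Genes needed in every cell stood almost wholly on the active side, compared with 45.7% of all genes with H3K27ac only. H3K27ac only was found at 78 of 84 ribosomal protein genes, 43 of 48 proteasome subunits, 65 of 76 respiratory chain subunits, 58 of 63 replication-dependent histone genes and 23 of 25 housekeeping genes. The exception with both marks in the last list was Pgk1, a glycolytic enzyme gene on the X chromosome, with 73 and 33 H3K27me3 reads. Large receptor families for smell carried almost no mark. Neither mark was called at 1071 of 1106 olfactory receptors, 352 of 353 vomeronasal receptors and 67 of 71 defensins, against 30.2% of all genes. Keratin and keratin-associated genes were divided, with neither mark at 66 of 105, H3K27me3 only at 34 (32.4%, against 15.6% of all genes), both marks at 4 and H3K27ac only at 1.

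**Figure D4:**
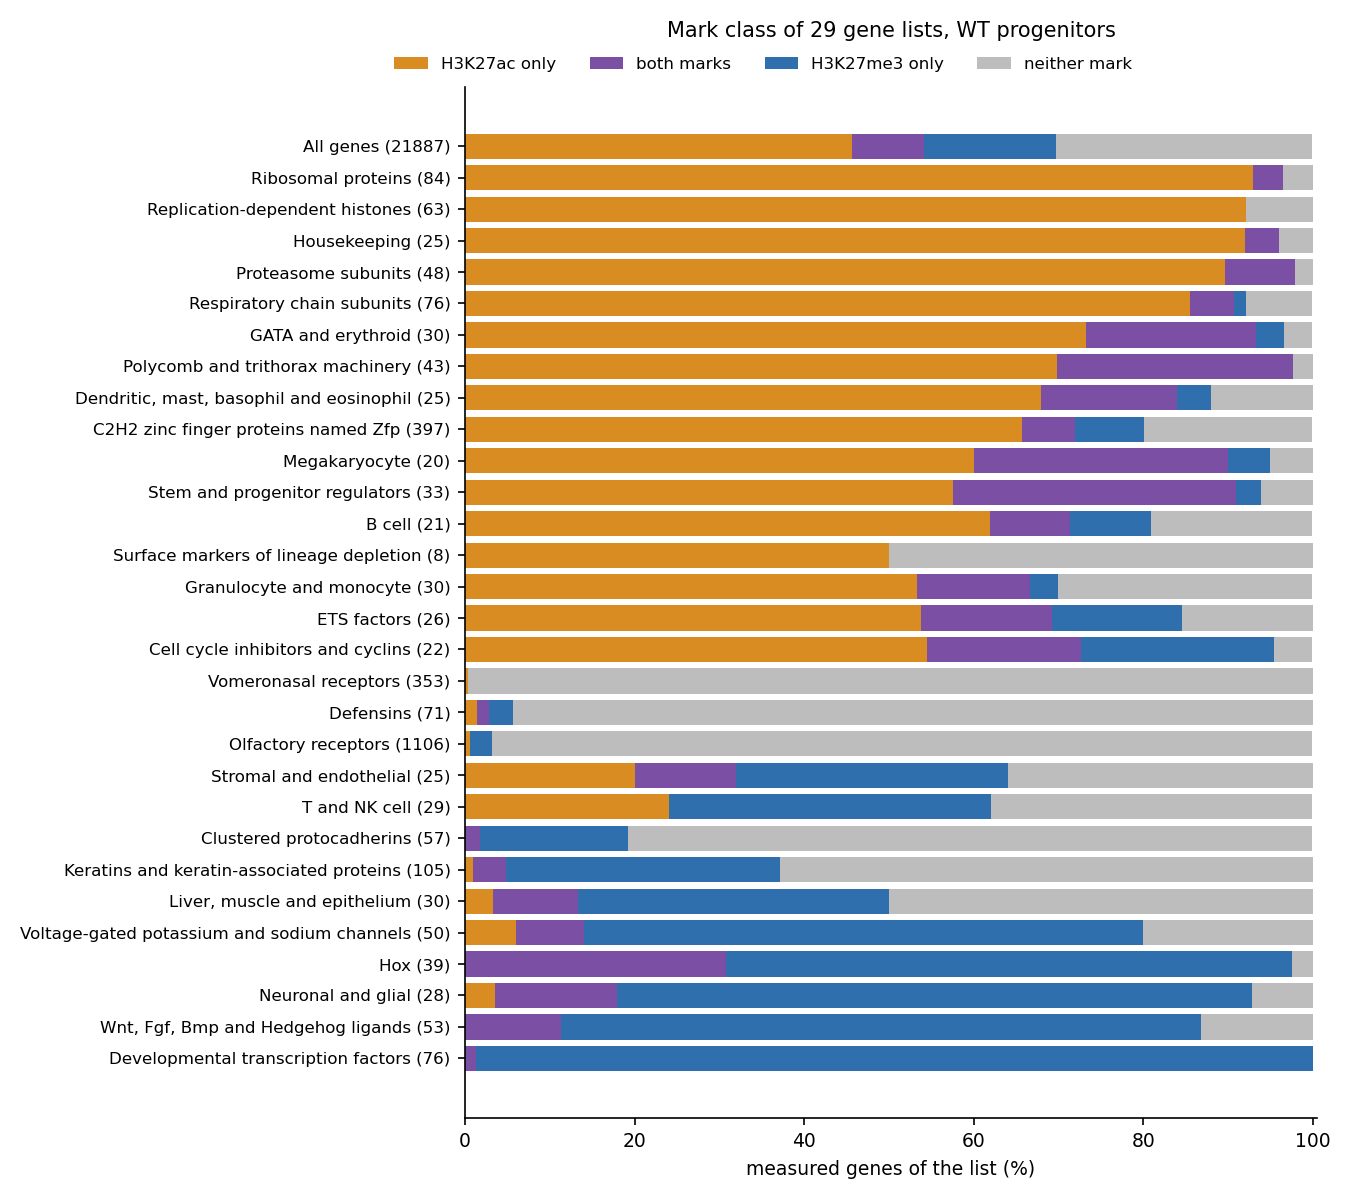
Percent of the measured genes of each list (number in brackets) in each class, with all genes in the top row. Developmental factors are at H3K27me3 only for 75 of 76 genes, ribosomal protein genes at H3K27ac only for 78 of 84, olfactory receptors at neither for 1071 of 1106, and the bars for both marks are long in the Hox, stem and progenitor, megakaryocyte and Polycomb lists.

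The class with neither mark partly reflects the rule. Of its 6611 genes, 5827 (88.1%) had no island of both libraries of a mark anywhere in the gene, 391 had H3K27ac inside it only, 265 had H3K27me3 and 128 had both. Gata1, the master factor of erythroid cells, was one of the 391: an H3K27ac island of 749 reads met its ends in WT1, but the island in WT2 lay inside the gene. Ets1 was another. Conversely, 551 of the genes with H3K27me3 only (16.1%) and 306 of those with H3K27ac only (3.06%) had both marks when the whole gene was searched. The width of the window bears most on the genes with both marks, which numbered 1420 at 1 kb, 1840 at 2 kb and 2876 at 5 kb.

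A core of 331 genes had both marks under each of 15 alternative rules that could be applied to them (windows, island strength, libraries and annotation), or 18% of the 1840. Several of these rules cannot remove a gene with both marks. All 1840 were kept with 5 kb windows, an island in either library, a search of the whole gene or any single library left out. The core was therefore set by the stricter rules, such as cover of 50% of a window, which kept 579. Hoxa9, Hoxa7, Hoxa3, Hoxb3 and Hoxb5 belonged to it, as did 9 of the 11 stem and progenitor regulators: Gata2, Cebpa, Gfi1, Meis1, Fli1, Hlf, Mecom, Flt3 and Bmi1. Epor, Slc4a1, Sptb, Gp5, Irf8, Ccnd1, Ccnd2, Bcor, Phf19 and Kdm6b were also in it. Among the genes with the most bases under both marks, Id1, Mt2, Sphk1 and Hes5 were members. Id1, an inhibitor of differentiation factors, had 7452 such bases within its windows, with 261 and 226 H3K27me3 reads beside 605 and 907 H3K27ac reads. In 282 of the 331 (85.2%) the marks overlapped in bases. Rules that ask for 50% cover or for both marks at the 5′ end favour such overlap, so this share partly follows from them.

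The classes were not spread evenly over chromosomes. Both marks were called at 13.5% of the genes of chromosome 11, which holds the Hoxb cluster and the Cbx2 and Cbx8 genes, the highest share of any chromosome. The X chromosome had 1.18% of its bases in H3K27ac, against 3.48% to 8.67% for the autosomes, and 49.5% of its genes had neither mark. All 256 genes of the Y chromosome had neither, and they count among the 6611 genes of that class. The Y had 0% of its bases in H3K27ac and 0.00617% in H3K27me3, and the sex of the mice is not given. Islands alone cannot tell unmarked chromatin from a lack of reads there.

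UTX binding, which the rule did not use, followed H3K27ac. An island of both UTX libraries met the ends of 7595 genes, or 34.7% of all. A UTX island met 73.3% and 78.3% of the genes with H3K27ac only (libraries 1 and 2, mean 75.8% ± 3.52 SD, n = 2) and 58.5% and 63.6% of those with both marks (61.1% ± 3.65). It met 11.2% and 11.0% of those with H3K27me3 only (11.1% ± 0.165) and 1.54% and 1.97% of those with neither (1.75% ± 0.299). The 4 classes kept this order and did not overlap between the libraries, and IgG met less than 1% of each class. At Cebpa the UTX islands held 128 and 168 reads, and at Hoxa9 53 and 392, while Gata3 and Pax6 met none.

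At the level of bases the difference between both marks and H3K27ac only depended on position. UTX islands covered 31.3% and 40.6% of the bases with both marks, against 11.2% and 18.8% of those with H3K27ac only and 1.43% and 1.62% of those with H3K27me3 only. Within 2 kb of gene ends the values were 36.9% and 45.8% for both marks against 30.6% and 44.6% for H3K27ac only, a gap smaller than that between the libraries. Farther from the ends they were 22.0% and 32.1% against 4.79% and 10.3%. UTX in both libraries was found at 19 of 33 stem and progenitor regulators (57.6%) and 2 of 39 Hox genes (5.13%). It was found at 34 of 43 Polycomb and trithorax genes (79.1%). The share was 34.7% of all genes and 65.9% of those with H3K27ac only. Ribosomal protein genes, at 78.6%, were near the Polycomb and trithorax list.

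In the KO libraries, labelled as lacking UTX, the same rule gave 1463 genes with both marks (6.68% of all). Of the 1840 WT genes, 1114 (60.5%) had both marks in KO too, 483 (26.2%) were H3K27ac only, 225 (12.2%) H3K27me3 only and 18 neither. Read the other way, the 1114 were 76.1% of the KO class, and 178 of the rest had been H3K27me3 only and 165 H3K27ac only in WT. The classes with 1 mark or none kept more of their genes: 95.5% of H3K27ac only, 80.7% of H3K27me3 only and 94.6% of neither. To stay, a gene with both marks needs islands in the KO libraries of both, which is a stricter demand. In KO1 and KO2, genes with both marks met H3K27ac at 91.2% and 88.0% and H3K27me3 at 77.0% and 84.0%. Genes with H3K27ac only met H3K27ac at 98.2% and 97.4%, and those with H3K27me3 only met H3K27me3 at 88.8% and 92.0%. A class chosen on the WT libraries shrinks in any other libraries, so these shares are descriptions. In bases, KO had 1.53 Mb with both marks, of which 0.711 Mb had both in WT, 36.0% of the WT bases and 46.5% of the KO bases.

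Among the genes named above, Hoxa9, Gata2, Cebpa, Meis1, Mecom and Epor had both marks in KO as well. Gfi1, Fli1, Id1, Bcor and Socs1 were H3K27ac only in KO. At Id1, Bcor and Socs1 the H3K27me3 island was missing in KO1 only, and KO2 held 166, 229 and 44 reads. At Gfi1 the H3K27me3 reads were 0 and 86 in the KO libraries, against 318 and 310 in WT, and at Fli1 they were 0 and 0 against 114 and 148. Slc4a1, Trim10 and Prdm16 were H3K27me3 only in KO, and at Slc4a1 H3K27ac held 0 and 135 reads against 294 and 782. Tal1 went from H3K27ac only to both marks, with 572 and 493 H3K27me3 reads in KO, and Pax5 and Ebf1 went from H3K27me3 only to both, with 977 and 1109 H3K27ac reads at Pax5. These read numbers are not scaled for depth.

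**Figure D5:**
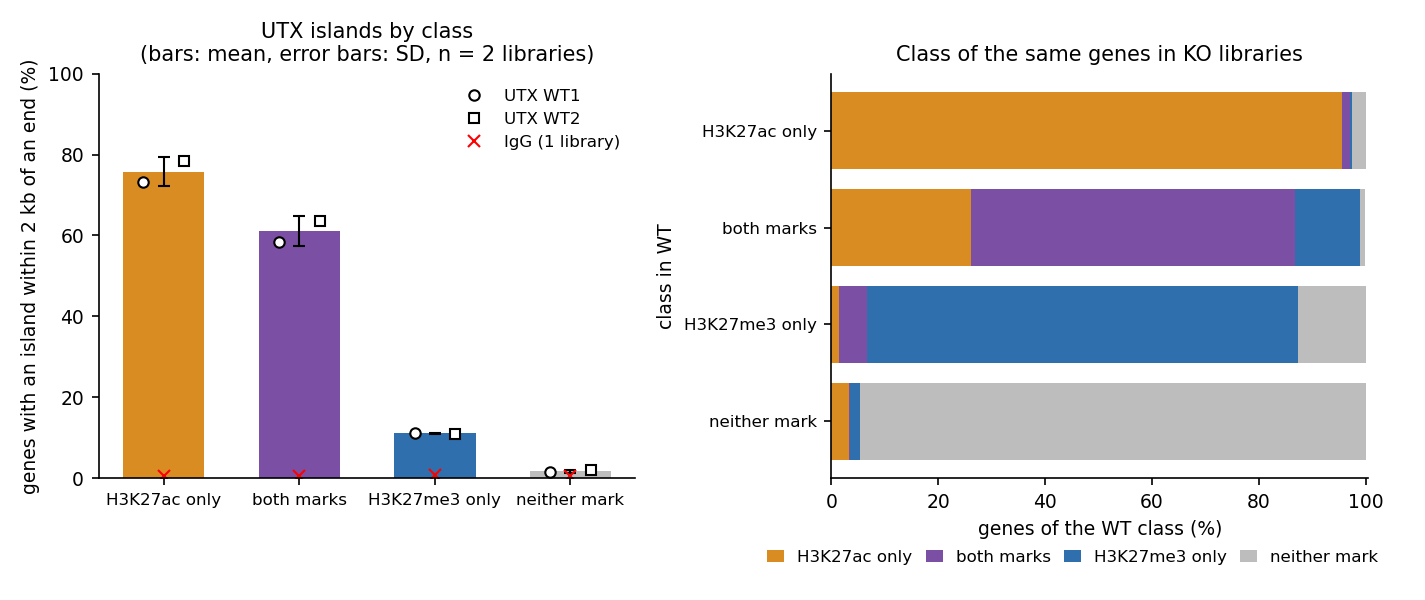
Left, percent of genes of each WT class that met a UTX island (bars, mean of 2 libraries; error bars, SD; symbols, each library; red crosses, IgG). Right, class in KO of the genes of each WT class. Both marks were kept in KO by 60.5% of the genes with both in WT, against 95.5% kept for H3K27ac only. Keeping both needs islands in the KO libraries of both marks.

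The promoter sequences, also not used by the rule, separated the class with neither mark from the others. Over the 16 chromosomes on which at least 80% of the genes had a sequence, the median CpG ratio of the 300 bases around the start was 0.767 for H3K27ac only (n = 6615 genes), 0.718 for both marks (n = 1120), 0.593 for H3K27me3 only (n = 2117) and 0.175 for neither (n = 4547), against 0.562 for all. The median GC content was 60.0%, 62.3%, 60.7% and 44.7% in the same order. Genes with both marks were thus nearer to those with H3K27ac only in CpG ratio, and Hoxa9, shown above, was far below their median.

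Short motifs were searched on both strands of the same 300 bases. GGGCGG, the core of the GC box bound by Sp1, was present in 62.1% of the promoters with H3K27ac only, 68.0% with both marks, 55.8% with H3K27me3 only and 11.5% with neither, and in 45.7% of all. CCGGAAG, an ETS motif, was present in 20.2%, 11.5%, 3.78% and 3.08%, and in 11.7% of all. Where the marks overlapped in bases it was present in 7.75%, where they lay apart at the same end in 17.6%, and at different ends in 13.2%. TATAAA was present in 7.30%, 6.79%, 9.68% and 26.1% (13.6% of all), and AGATAA, to which Gata1 and Gata2 bind, in 6.92%, 5.18%, 7.27% and 18.1% (10.4% of all). GC content differed between the classes, as given above, and its part in these shares was not tested. CCGGAAG itself contains a CG. Over the classes, the order of its shares was not that of GC content. It was that of the median CpG ratio, at 0.767, 0.718, 0.593 and 0.175. Within the class with both marks the ratio was 0.735 for overlap in bases, 0.722 for marks apart at the same end and 0.700 for different ends. The part of the CpG ratio in these shares was not tested either.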

How the data were processed

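Per the submitters' processing notes, reads were assigned to mm10 and islands were called with SICER. The aligner, the versions and the settings are not given in the sources used here. The files the authors deposited hold, for each island, chromosome, start, end and the read count, as whole unscaled counts; histone islands lay at least 800 bp apart and UTX and IgG islands 400 bp. No read total of a library was used, so scaled values are reads per kb of island per 1000000 reads in islands, and they leave out reads outside islands.

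Islands met genes through RefSeq gene coordinates of GRCm38.p6 (21887 protein-coding genes on placed chromosomes) with Python 3.11.15, numpy 2.4.6, pandas 2.3.3 and matplotlib 3.10.9. A mark was called with at least 1 bp of overlap between an island of each of 2 libraries and a window of 2 kb around either gene end. The interval code was checked on simulated data. Strand came from the promoter table, so 5′ and 3′ ends were known only for genes listed there. Promoter values were limited to chromosomes with at least 80% of genes in that table, a limit set after seeing the data, because it covers 79.9% of genes over all chromosomes.

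Members and gene lists were chosen with earlier results of these data known. Genes named are members of the lists, the 10 strongest of each class with 1 mark, the 15 with the most bases under both marks, the 10 strongest in both by rank and genes in the 3 longest stretches of each mark. Tnrc18, Runx2 and Socs1 fall outside this rule and were chosen after their values were seen. Genes are not replicates, and no test was run. Some members of the lists are counted but not reported by name here.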

Additional observations from a re-analysis of the deposited data

How the results depend on the processing

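Of 155 comparisons of a main value with an alternative, 100 stayed within the spread between pairings or libraries, or within 1.5 times for a count, and 55 moved; the counts of genes with H3K27ac only, H3K27me3 only and neither mark stayed within 1.5 times under all alternatives run. Genes with both marks (1840) numbered 2876 with 5 kb windows, 579 where an island had to cover 50% of a window, 3005 with an island in either library and 819 at the 5′ end only. Chosen after seeing the data, a search of the whole gene gave 2825 and one around all starts that the promoter table lists gave 928. Those with both marks in WT and KO (1114) numbered 1860, 281, 1998, 443, 1899 and 531 under the same settings. UTX met 67.5% of genes with both marks at 5 kb and 66.3% with the weakest 25% of islands in reads per kb left out. It met 9.94%, 12.5% and 13.1% of H3K27me3 only at 1 kb, at 5 kb and without the weakest 25%, and 10.2% to 10.6% without single libraries; for neither mark it met 1.44%, 2.37% and 2.31%. The median CpG ratio at 1 kb, 5 kb and without the weakest 25% was 0.771, 0.758 and 0.773 for H3K27ac only (0.761 to 0.769 without single libraries), 0.608, 0.570 and 0.622 for H3K27me3 only (0.559 to 0.593), and 0.179, 0.164 and 0.181 for neither (0.171 to 0.174); for both marks it was 0.711 at 5 kb and 0.740 without the weakest 25% (0.716 to 0.733). Bases in either library were 192 Mb for H3K27ac only, 142 Mb for H3K27me3 only and 5.75 Mb for both; without the weakest 25% H3K27ac only fell to 103 Mb and both marks to 1.52 Mb. Without single libraries the ranges were 127 to 175 Mb, 62.7 to 115 Mb and 2.40 to 3.22 Mb. The cause of these shifts was not tested beyond the change in islands or windows that each setting makes. No paired analysis was possible because the results come from no test. The fewer reads of the H3K27me3 islands limit what a missing H3K27me3 call shows.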

Other observations

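C2H2 zinc finger genes named Zfp are a family of mostly repressive DNA-binding factors. Of 397, 261 carried H3K27ac only (65.7%), 32 H3K27me3 only (8.06%), 25 both marks (6.30%) and 79 neither (19.9%). The shares of all genes were 45.7%, 15.6%, 8.41% and 30.2% in the same order. Dendritic, mast, basophil and eosinophil genes gave 17 of 25 with H3K27ac only (68.0%) and 4 with both (16.0%), namely Batf3, Irf4, Flt3 and Gata2. Irf4, a factor of B cells and dendritic cells, had 115 and 195 H3K27me3 reads beside 59 and 128 H3K27ac reads. Clustered protocadherins, adhesion genes of neurons, had 10 of 57 with H3K27me3 only (17.5%), near the share of all genes, and 46 with neither (80.7%). ETS factors gave 14 of 26 with H3K27ac only and 4 in each of the other classes. Elk3, Erg, Spib and Fli1 were in the class with both. The ETS shares of 53.8% for H3K27ac only and 15.4% for H3K27me3 only lay near the 45.7% and 15.6% of all genes. Both marks and neither were at 15.4% each, against 8.41% and 30.2% of all genes.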
